A study of Mus musculus with 47 samples.

Results

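The milk protein genes described here are the 5 caseins Csn1s1, Csn2, Csn1s2a, Csn1s2b and Csn3, their cluster neighbour Odam, and 2 unlinked milk genes, Wap and Lalba. They were chosen by name, and all 8 were found by identifier among the 53402 genes listed for adult and the 55471 listed for neonatal mice. Caseins are the calcium-binding proteins that form the micelles of milk, and the mammary gland makes them during lactation under prolactin through the transcription factor STAT5. Medullary thymic epithelial cells (mTECs) transcribe many genes of other tissues, which exposes developing T cells to those proteins, and Aire is the nuclear factor on which much of this transcription depends. EED belongs to Polycomb repressive complex 2, the enzyme complex that places the repressive mark H3K27me3 on histones.

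RNA was sequenced in bulk from C57BL/6 thymus after sorting live CD45- EpCAM+ Ly51- cells by surface MHC class II, high in mTEChi and low in mTEClo. The 23 adult libraries held mTEChi from 7 WT (4 to 5 weeks) and 4 AireKO mice (5 to 6 weeks), and mTEClo from 8 WT (4 to 5 weeks) and 4 AireKO mice (5 to 6 weeks), with all AireKO mice male. The 24 neonatal libraries held mTEChi of 5 Ctrl (1 to 6 days), 3 EEDcKO (1 to 6 days), 3 AireKO (4 to 6 days) and 3 AireEEDdKO (4 to 6 days), and mTEClo of 3 Ctrl (1 to 3 days), 4 EEDcKO (1 to 6 days) and 3 AireEEDdKO (4 to 6 days). EED was deleted by Foxn1-Cre, which acts in thymic epithelium from early in its development and not in mTECs alone, and several neonatal libraries pooled male and female mice. The alleles that the Ctrl mice carry are not given in the labels. Replicates are separate libraries of 1 mouse or a pool, so the p-values measure the spread between these libraries.

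Total counts ran from 1602125 to 3938588 per adult and from 1578579 to 4817418 per neonatal library. Levels are given in CPM, the count of a gene relative to the TMM-scaled total of its library, and all limits and floors cover counting error only. The mTEC markers Epcam, Krt5, Krt14, Krt8, H2-Aa, Cd80, Aire and Fezf2 were detected in every group. In adult mTEChi, Aire ranged from 753 to 921 CPM in the WT libraries and from 17.1 to 39.3 CPM in the AireKO ones. In neonatal mTEChi, Eed was at 20.4 to 38.8 CPM in Ctrl and 10.7 to 19.8 CPM in EEDcKO libraries, ranges that stood apart. All 4 adult mTEChi AireKO libraries and replicates 3 and 4 of mTEClo AireKO held 0 counts of mitochondrial genes, whereas every other library held at least 6178, so genotype and kind of library cannot be told apart in adult mTEChi. In bulk RNA, fewer cells of a type and less RNA per cell cannot be told apart either.

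The 6 clustered genes span 266.5 kb of chromosome 5 (GRCm38, chr5:87666208-87932665). Csn1s1 on the plus strand comes first, and Csn2 on the minus strand lies 10.0 kb beyond it. Csn1s2a, Csn1s2b, Odam and Csn3, all on the plus strand, follow after gaps of 74.9, 19.3, 60.6 and 31.4 kb. Wap lies at chr11:6635482-6638637 and Lalba at chr15:98480400-98482721, both on the minus strand. A noncoding antisense gene, 1700066N21Rik, overlaps the body of Csn3 but shares 0 of its exonic bases.

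The 250 bases before the RefSeq start (GRCm38.p6) are shown for the 3 cluster genes whose data are described most fully below, because Csn2 was not called in Aire-deficient mTEChi while the genes on either side of it were. RefSeq held a promoter for 6 of the 8 genes. For 2 of the genes shown its starts differ from those of the gene models used for the other coordinates, which lie at 87774567 for Csn1s2a and 87699630 for Csn2. Motif distances below are from the RefSeq starts. The windows are chr5:87665958-87666207 on the plus strand for Csn1s1, chr5:87699426-87699675 on the minus strand for Csn2 and chr5:87774200-87774449 on the plus strand for Csn1s2a, each written 5′ to 3′. Capitals mark TTCNNNGAA, the palindromic core that STAT5 is known to bind, which reads the same on both strands.
Csn1s1: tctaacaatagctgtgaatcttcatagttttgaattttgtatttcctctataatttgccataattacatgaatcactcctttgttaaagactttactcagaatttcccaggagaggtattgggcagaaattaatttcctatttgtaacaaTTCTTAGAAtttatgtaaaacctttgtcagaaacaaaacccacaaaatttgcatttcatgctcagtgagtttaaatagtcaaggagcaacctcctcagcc
Csn2: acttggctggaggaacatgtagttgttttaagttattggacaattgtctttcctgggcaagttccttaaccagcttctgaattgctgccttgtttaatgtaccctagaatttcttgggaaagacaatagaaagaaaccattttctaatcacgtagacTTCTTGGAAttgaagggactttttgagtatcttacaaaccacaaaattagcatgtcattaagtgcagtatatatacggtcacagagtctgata
Csn1s2a: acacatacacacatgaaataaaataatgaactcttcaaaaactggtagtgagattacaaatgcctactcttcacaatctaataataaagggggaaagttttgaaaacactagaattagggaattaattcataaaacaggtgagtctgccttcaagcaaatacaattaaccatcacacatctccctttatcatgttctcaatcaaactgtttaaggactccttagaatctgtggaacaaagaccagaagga
The motif stood 100 to 92 bases before the start in Csn1s1 and 93 to 85 bases before it in Csn2. It was not in the windows of Csn1s2a, Odam, Wap or Lalba, and 7.0% of 32841 mouse promoters of this length held it. The TATAAA box was in none of the 6 windows and in 12.4% of all promoters. The 6 windows held 0 to 2 CG dinucleotides each, against a median of 6 over all promoters, 29.0% of which held 2 or fewer.

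In adult mTEChi of WT mice, all 8 genes had at least 1 count, and their levels per length differed widely. Per kb of spliced coding transcript, Csn2 (beta-casein) stood at 308 ± 75.8 CPM (SD, n = 7), Csn1s2a at 39.4 ± 11.49 and Csn1s1 (alpha-s1-casein) at 14.1 ± 4.15. The ranges of these 3 genes did not overlap. Csn3 (kappa-casein, which caps the micelle surface) followed at 7.67 ± 2.58 CPM per kb, and Wap (whey acidic protein) at 6.02 ± 3.39. Odam, a gene of the enamel-forming epithelium, stood at 2.14 ± 0.744 CPM per kb and Csn1s2b at 0.966 ± 0.495, and neighbours in the order overlapped from Csn1s1 down to Csn1s2b. Lalba, the milk whey protein that directs lactose synthesis, had 1 count in all 7 libraries together. Neonatal mTEChi of Ctrl mice gave the same order, with means of 269 CPM per kb for Csn2, 34.1 for Csn1s2a and 17.4 for Csn1s1, and Lalba was at 0 in 5 libraries, which allows up to 0.197 CPM. Csn2 alone made up 80.4 to 88.0% of the counts of the 6 clustered genes in adult WT mTEChi. The counted gene models are long (6926 exonic bases for Csn2, whose spliced transcript has 1329, and 6247 for Csn1s1, whose transcript has 1411), so reads of unspliced RNA can enter these levels. Per kb of all exonic bases in adult WT mTEChi, Wap (3.29 CPM) stood above Csn1s1 (3.19) and Csn3 (2.95). The order below Csn1s2a thus depends on the length used.

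**Figure D1:**
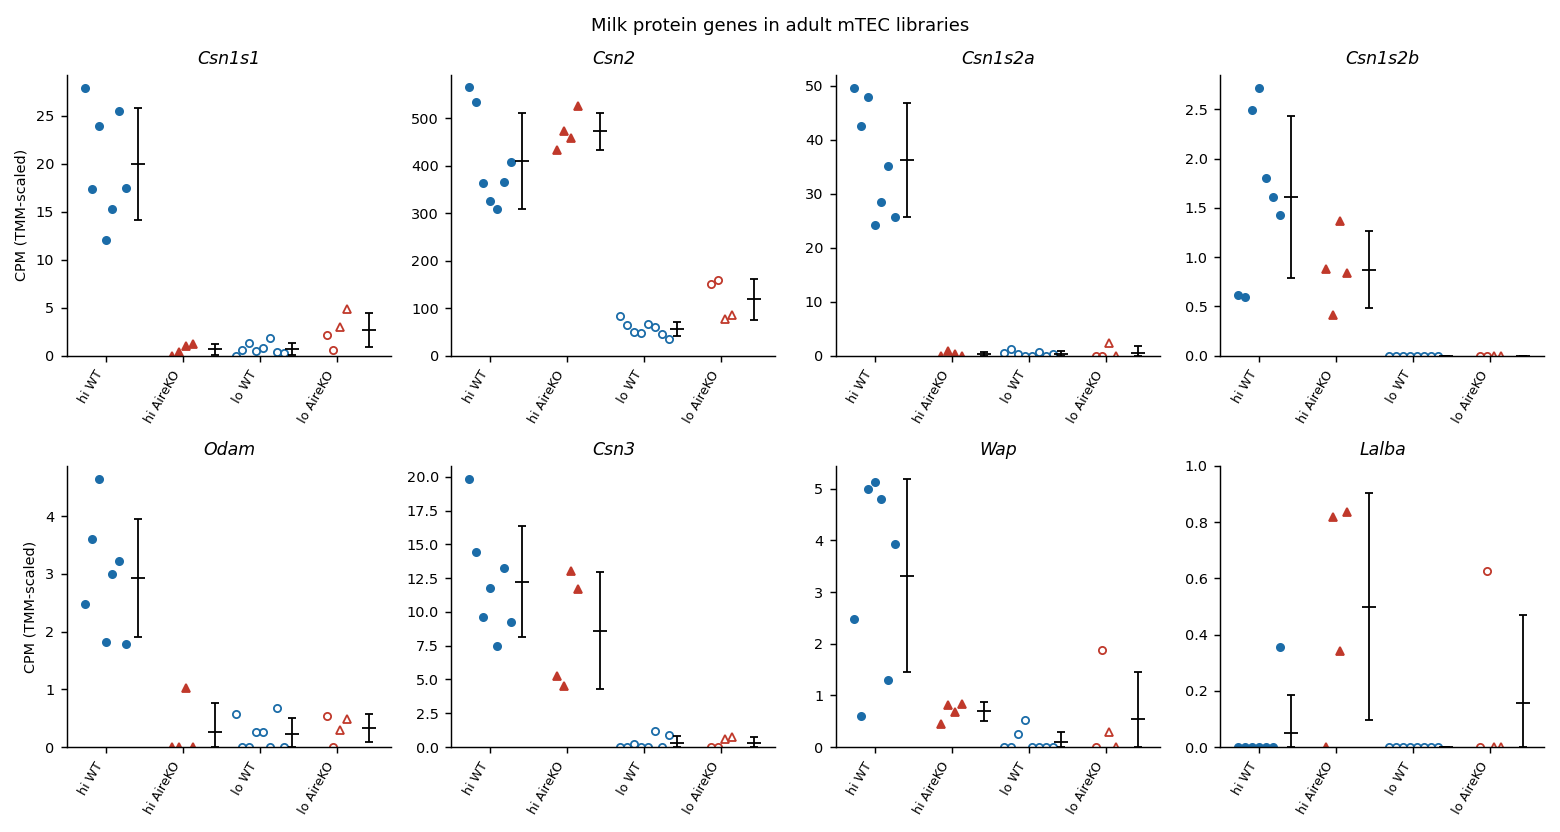
Levels of the 8 genes in each adult library, in CPM after TMM scaling, with mTEChi filled and mTEClo open, and triangles for libraries with 0 mitochondrial counts. Black marks give the mean and SD, with bars ended at 0. Csn1s1 and Csn1s2a were near 0 in mTEChi AireKO, whereas Csn2 was at 433 CPM or more in each of those libraries and at 308 to 565 CPM in WT.

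Aire deficiency in adult mTEChi addressed which milk genes depended on Aire. Within the cluster, Csn1s1 and Csn1s2a fell to at most 3 counts a library, while Csn2 between them and Csn3 at the far end were not called. Of the 8 genes, 5 passed the filter on low counts, and 3 were called lower at an adjusted p under 0.05 with at least a 2-fold change (edgeR quasi-likelihood test), where 17.8% of the 19310 genes tested were called lower. Csn1s2b, Odam and Lalba did not pass the filter. The called genes, Csn1s1, Csn1s2a and Wap, passed it only through WT mTEChi, so a call lower was favoured in advance for them.

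Csn1s2a had 71, 80 and 134 counts as the lowest, median and highest of 7 WT libraries, and 0, 2, 1 and 0 counts in the 4 AireKO libraries. The groups did not overlap, and its mean level was 36.2 ± 10.6 CPM in WT and 0.290 ± 0.387 CPM in AireKO. The difference was −6.70 ± 0.57 (log2 fold change ± SE, adjusted p = 1.58e-10), and −7.66 without AireKO replicate 2. The ratio of WT to AireKO from the summed counts, of which AireKO held 3, was 115 with an exact 95% interval of 39.2 to 560 for counting error, and ratios with intervals of this kind are given for called genes where a group held 1 to 3 counts in all. Csn1s1 had 29, 49 and 79 counts in WT and 0, 1, 3 and 3 in AireKO. Every AireKO library was below every WT library for Csn1s1, with a log2 fold change of −4.74 ± 0.46 (adjusted p = 1.99e-09).

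Csn2 had 890, 1028 and 1139 counts in WT, and 987, 1156, 1336 and 1259 in AireKO. The groups overlapped, at 410 ± 101 CPM in WT and 472 ± 39.3 CPM in AireKO, a log2 fold change of 0.21 ± 0.19 that did not pass the test (adjusted p = 0.353). It passed that threshold at 0.43 (adjusted p = 0.0013) among libraries with totals of 2500000 to 3500000 counts and at 0.62 (adjusted p = 0.0044) with age in weeks as a term, both less than 2-fold higher in AireKO. Csn2 took 96.5 to 98.7% of the cluster's counts in AireKO libraries.

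Csn3 had 24, 27 and 41 counts in WT and 12, 11, 38 and 28 in AireKO. AireKO replicates 1 and 2, at 5.27 and 4.50 CPM, were below all WT libraries, and replicates 3 and 4, at 13.0 and 11.7 CPM, were within the WT range of 7.50 to 19.8. Csn3 thus had a log2 fold change of −0.44 ± 0.33 (adjusted p = 0.273). Odam had 4 to 13 counts in each WT library and 0, 0, 3 and 0 in AireKO. It was called lower with no filter on low counts (−3.13 ± 0.67, adjusted p = 0.000123). Csn1s2b had 1 to 9 counts in WT and 1 to 4 in AireKO, and it was not called with no filter (−0.95 ± 0.57, adjusted p = 0.22).

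Of the unlinked genes, Wap had 1, 11 and 17 counts in WT and 1, 2, 2 and 2 in AireKO. The ranges overlapped at the lowest WT library, and the log2 fold change was −2.26 ± 0.60 (adjusted p = 0.00227). Lalba had 1 count over all WT and 5 over all AireKO libraries, which is not enough to compare. Marker lists moved with genotype as well: summed thymocyte markers were 69.5 to 91.0 CPM in WT and 41.4 to 56.1 in AireKO, summed myeloid and B cell markers 243 to 290 and 322 to 367, and summed cTEC markers 385 to 500 and 576 to 691. Their part in these differences was not tested.

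In adult mTEClo, where Aire itself was at 19.6 to 128 CPM in WT, the genes were low in both genotypes except Csn2. Of the 5 genes tested, 2 were called higher in AireKO, where 4.42% of all genes were. Csn2 had 102, 161.5 and 266 counts as lowest, median and highest of 8 WT libraries, and 280, 255, 260 and 350 in AireKO. In CPM the AireKO libraries split, with 152 and 160 in replicates 1 and 2 and 77.4 and 85.0 in replicates 3 and 4, the latter near the highest WT value of 82.7. Replicates 1 and 2 were also the shallower libraries, with totals of 1883769 and 1639231 counts beside 3272356 and 3938588. The part of depth in this split was not tested. Csn2 had a log2 fold change of 1.05 ± 0.20 (adjusted p = 0.00028). It went under 2-fold without WT replicate 8 (0.97) or AireKO replicate 1 (0.90) or 2 (0.87), and was 1.50 with only libraries that hold mitochondrial counts.

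Csn1s1 had 0, 1.5 and 6 counts in WT mTEClo and 4, 1, 10 and 20 in AireKO, a log2 fold change of 1.94 ± 0.49 (adjusted p = 0.00473). In CPM, AireKO replicates 1, 3 and 4 (2.17, 2.98 and 4.86) were above all WT libraries, of which replicates 3 and 4 hold 0 mitochondrial counts and replicate 1 holds them. The call was lost without AireKO replicate 4 (1.43, adjusted p = 0.0849) and with only libraries that hold mitochondrial counts (0.89, adjusted p = 0.508). It was also lost among male mice (1.33, adjusted p = 0.105) and with an age term (1.77, adjusted p = 0.0602). Csn1s2a had 8 counts in AireKO replicate 3 and 0 in the other 3 AireKO libraries, against at most 2 in WT. Summed cTEC markers were 278 to 395 CPM in AireKO and 174 to 221 CPM in WT, and summed myeloid and B cell markers 88.9 to 127 and 39.8 to 80.8 CPM, and their part in these differences was not tested.

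The effect of Aire deficiency differed between the fractions for 2 of the 5 genes tested, where 11.0% of all genes were called with a lower effect in mTEChi. The difference of the effects was −6.68 ± 0.71 on the log2 scale for Csn1s1 (adjusted p = 9.3e-08) and −7.92 ± 1.45 for Csn1s2a (adjusted p = 0.000162). The Csn1s2a value rested on the 8 counts of mTEClo AireKO replicate 3 and was not called (adjusted p = 0.941) without it. Csn2 differed by −0.84 ± 0.28 (adjusted p = 0.025), less than 2-fold, and by −1.02 without mTEClo AireKO replicate 3.

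Between fractions, all 5 genes tested were called higher in mTEChi than in mTEClo of WT adults, where 23.7% of all genes were, and no gene's ranges overlapped. Csn1s1, Csn1s2a and Wap passed the filter only through WT mTEChi, so a call higher was favoured in advance for them. With no filter on low counts Odam (3.56, adjusted p = 3.11e-08) and Csn1s2b (adjusted p = 3.05e-08), the latter at 0 in mTEClo, were called higher as well. The log2 fold change was 2.87 ± 0.17 for Csn2, at 410 ± 101 and 56.7 ± 15.2 CPM (adjusted p = 9.02e-15). It was 6.75 ± 0.41 for Csn1s2a, 5.01 ± 0.45 for Csn3, 4.60 ± 0.33 for Csn1s1 and 4.42 ± 0.60 for Wap, with adjusted p from 1.36e-14 to 2.09e-07. Single mTEClo libraries moved 2 of these: Csn3 to 5.68 without WT replicate 6 and Wap to 5.25 without WT replicate 4. The ratio of mTEChi to mTEClo for Wap, with 3 counts in mTEClo, was 29.5 (95% interval 9.66 to 146). In AireKO adults the order turned for Csn1s1, which was called lower in mTEChi (−2.07 ± 0.64, adjusted p = 0.00637), where 16.7% of all genes were. That call was lost without mTEClo AireKO replicate 4 (−1.58, adjusted p = 0.0656). Csn2 (2.03 ± 0.23, adjusted p = 8.54e-09) and Csn3 (4.15 ± 0.63, adjusted p = 1.99e-06) were called higher in AireKO mTEChi, where 18.5% of all genes were. The fractions also differed in markers of other cells, whose part was not tested. In WT, cTEC markers summed to 385 to 500 CPM in mTEChi and 174 to 221 in mTEClo, thymocyte markers to 69.5 to 91.0 and 13.2 to 21.8, mesenchyme markers to 191 to 356 and 55.3 to 88.4, and myeloid and B cell markers to 243 to 290 and 39.8 to 80.8. In AireKO these 4 lists stood apart in the same direction.

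**Figure D2:**
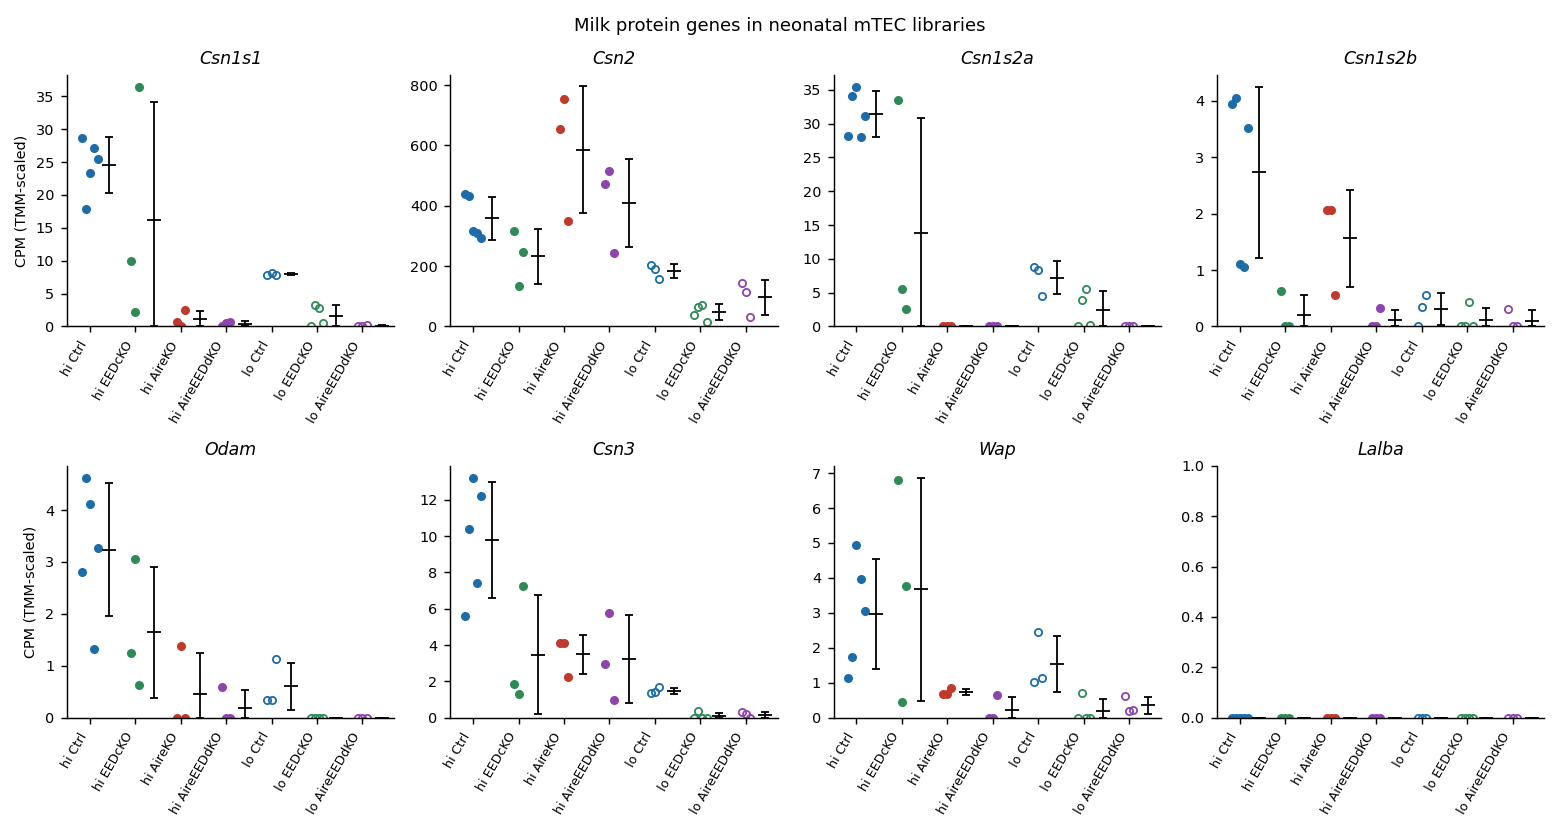
Levels of the 8 genes in each neonatal library, in CPM after TMM scaling, with mTEChi filled and mTEClo open. Black marks give the mean and SD, with bars ended at 0. Csn1s2a was at 0 in all AireKO and AireEEDdKO libraries, and Csn2 was at 351 to 753 CPM in AireKO mTEChi.

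In neonatal mTEChi, Aire deficiency left no count of Csn1s2a and few of Csn1s1, while Csn2 was not called. Of the 8 genes, 7 passed the filter (all but Lalba), and 4 were called lower in AireKO than in Ctrl, where 12.8% of the 20196 genes tested were. Odam, among the 4, passed the filter only through Ctrl mTEChi, so its call lower was favoured in advance. Csn1s2a had 50, 59, 129, 106 and 133 counts in Ctrl and 0, 0 and 0 in AireKO. It was thus at least 67.4-fold lower against a floor of 3 counts over the AireKO group (adjusted p = 0.000564). Csn1s1 had 51, 31, 85, 103 and 109 counts in Ctrl and 1, 0 and 9 in AireKO. All AireKO libraries were below all Ctrl libraries, and the log2 fold change was −4.05 ± 0.80 (adjusted p = 0.000799) and −5.98 without AireKO replicate 3.

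Csn2 had 782, 746, 1151, 1178 and 1246 counts in Ctrl and 956, 1093 and 1241 in AireKO. In CPM, AireKO replicates 1 and 2 (655 and 753) were above all Ctrl libraries (292 to 440), and replicate 3 (351) was within their range. This gave a log2 fold change of 0.71 ± 0.39 (adjusted p = 0.186). Replicates 1 and 2 were also shallower, with totals of 1646162 and 1681339 counts beside 3695066 in replicate 3. The part of depth in the Csn2 difference was not tested here.

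Odam had 5, 8, 15, 5 and 14 counts in Ctrl and 0, 2 and 0 in AireKO. Odam had a log2 fold change of −3.12 ± 0.95 (adjusted p = 0.0199), but the call was lost without AireKO replicate 1 (−2.73) or 3 (−2.12) and by DESeq2 (−3.22). With 2 counts in AireKO, the ratio of Ctrl to AireKO was 9.97 (95% interval 2.61 to 84.8), and without replicate 2, which held both, Odam was at least 5.39-fold lower. Csn3 was at 5.63, 10.4, 13.2, 7.39 and 12.2 CPM in Ctrl and at 4.11, 4.13 and 2.26 CPM in AireKO, with no overlap. Its log2 fold change of −1.58 ± 0.54 (adjusted p = 0.0303) was lost without AireKO replicate 1 (−1.71), 2 (−1.78) or 3 (−1.24), without Ctrl replicate 3 (−1.51) or 5 (−1.48), with a term for age class (−1.15) and by DESeq2 (−1.60). Csn1s2b had 7, 7, 4, 4 and 15 counts in Ctrl and 3, 3 and 2 in AireKO, a log2 fold change of −0.91 (adjusted p = 0.377). Wap was at 1.13 to 4.95 CPM in Ctrl and 0.685 to 0.848 CPM in AireKO, a log2 fold change of −1.99 ± 0.83 that did not pass the test (adjusted p = 0.0768). Summed thymocyte markers were 83.3 to 106 CPM in Ctrl and 56.2 to 77.1 CPM in AireKO, and summed endothelial markers 42.7 to 66.8 and 39.3 to 40.1 CPM. Summed mammary alveolar markers, which include Csn3, were 614 to 769 CPM in Ctrl and 926 to 1239 CPM in AireKO, but members of this list went both ways. Elf5 was at 9.35 to 19.0 CPM in Ctrl and 0.689 to 3.11 CPM in AireKO, and Csn3 was lower as well. Prlr was at 77.9 to 121 and 134 to 189 CPM, so the sum does not stand for the list as a whole. The part of these lists was not tested.

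**Figure D3:**
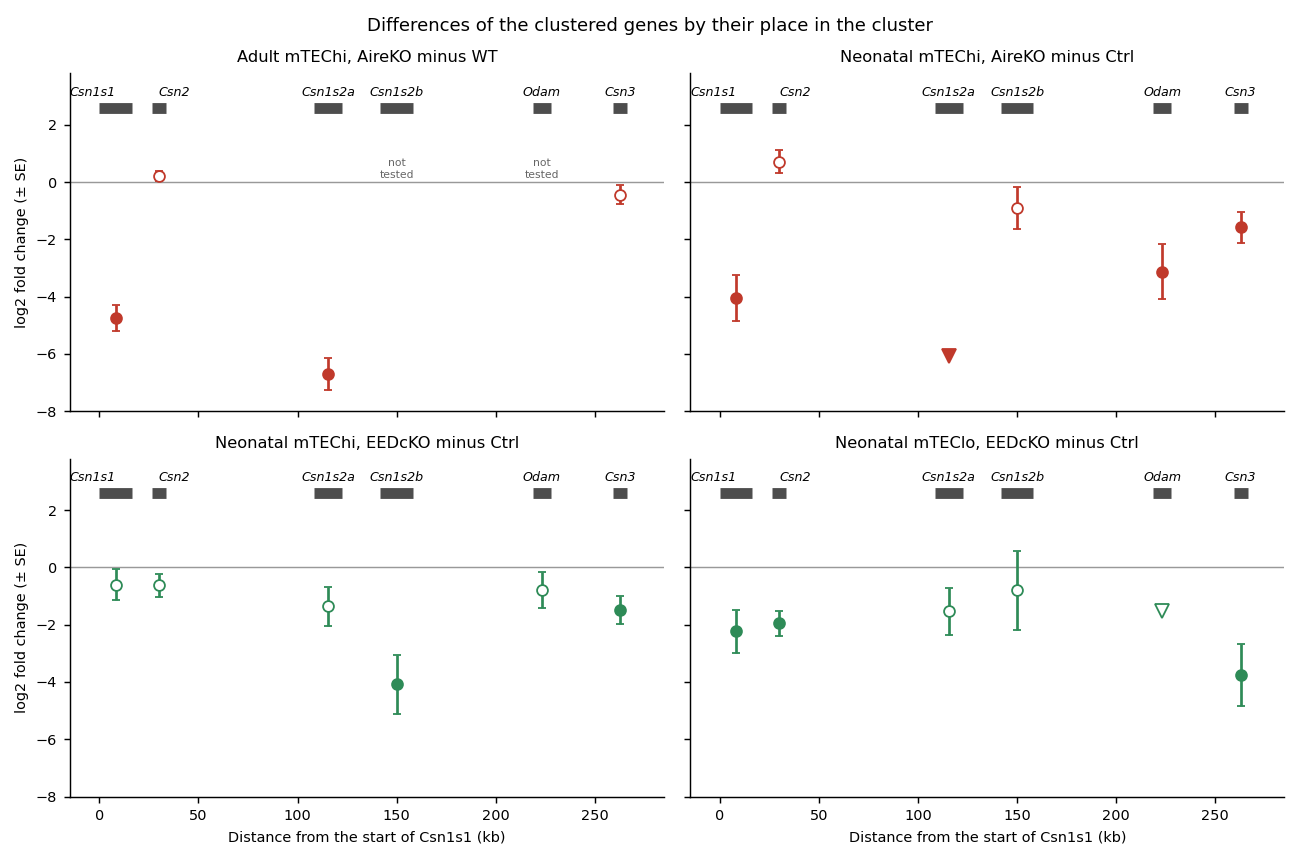
Log2 fold change with SE of the 6 clustered genes against distance in kb from the start of Csn1s1, in 4 comparisons. Filled symbols are called and open symbols are not, and triangles pointing down are bounds against a floor of 3 counts where a group was at 0. In both AireKO panels Csn2, 10.0 kb from Csn1s1, was not called (0.21 and 0.71), and its neighbours on both sides were called lower.

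Loss of EED in mTEChi addressed whether the genes also depended on Polycomb repressive complex 2. Csn1s2b and Csn3 were called lower, and Csn1s1 and Csn1s2a varied between EEDcKO libraries more than between Ctrl libraries. Of the 7 genes tested, 2 were called lower in EEDcKO than in Ctrl, where 5.4% of all genes were. Csn1s2b had 7, 7, 4, 4 and 15 counts in Ctrl and 1, 0 and 0 in EEDcKO, and the ranges did not overlap. Csn1s2b passed the filter only through the Ctrl mTEChi libraries, where it was highest, so a call lower was favoured in advance. It could be tested in 5 of the 8 fits without 1 library. Its log2 fold change was −4.09 ± 1.03 (adjusted p = 0.00407). With 1 count in EEDcKO, the ratio of Ctrl to EEDcKO was 22.8 (95% interval 3.85 to 924), and without EEDcKO replicate 1, which held that count, Csn1s2b was at least 7.05-fold lower. Csn3 was at 1.86, 1.31 and 7.23 CPM in EEDcKO, of which replicate 3 was within the Ctrl range of 5.63 to 13.2. The log2 fold change of −1.48 ± 0.50 (adjusted p = 0.0257) was lost without EEDcKO replicate 1 (−1.27) or 2 (−1.0), without Ctrl replicate 3 (−1.38) or 5 (−1.39) and among libraries with totals of 3000000 to 4400000 counts (−1.39), and was −2.69 without EEDcKO replicate 3.

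Csn1s1 and Csn1s2a were not called in EEDcKO, and of the 3 libraries replicates 1 and 3 went opposite ways for them. Csn1s1 had 16, 10 and 116 counts in EEDcKO replicates 1, 2 and 3, at 9.91, 2.19 and 36.5 CPM. Csn1s2a had 54, 25 and 8 counts in the same libraries, at 33.4, 5.47 and 2.52 CPM. Replicate 1, from mice of 6 days, was thus within the Ctrl range of 28.0 to 35.5 CPM for Csn1s2a and below the Ctrl range for Csn1s1. Replicate 3, from mice of 1 day, was above the Ctrl range of 17.9 to 28.7 CPM for Csn1s1 and far below it for Csn1s2a, and replicate 2, from 2 to 3 days, was low for both. Per library, Csn1s2a had 0.980 to 1.9 counts for each count of Csn1s1 in Ctrl and 3.38, 2.5 and 0.0690 in EEDcKO. Each age was held by 1 EEDcKO library, and the part of age or depth in this split was not tested.

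**Figure D4:**
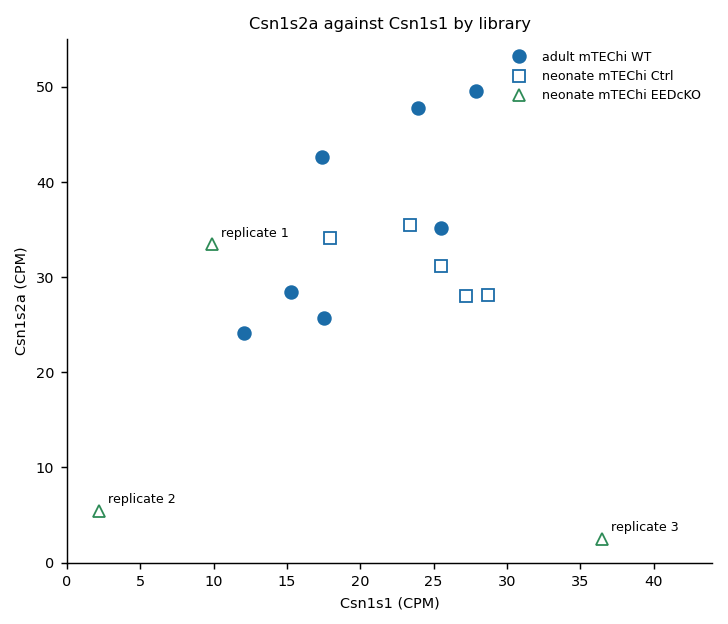
Csn1s2a against Csn1s1 in CPM, 1 point per mTEChi library of adult WT, neonatal Ctrl and neonatal EEDcKO mice. EEDcKO replicate 3 stood at 36.5 CPM of Csn1s1 with 2.52 of Csn1s2a, and replicate 1 at 9.91 with 33.4.

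The log2 fold change of Csn1s1 in EEDcKO was −0.60 ± 0.55 (adjusted p = 0.427), and without EEDcKO replicate 3 it was −2.26 and called lower (adjusted p = 0.00973). That of Csn1s2a was −1.36 ± 0.67 (adjusted p = 0.132), and without EEDcKO replicate 1 it was −2.90 and called lower (adjusted p = 0.00334), as it was with no filter on low counts (−1.37, adjusted p = 0.0343). The biological coefficient of variation in the neonatal fit was 60.3% for Csn1s1 and 68.5% for Csn1s2a, higher than in 98.1% and 99.0% of the genes tested. In the adult fit it was 26.5% and 27.5%.

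Csn2 was at 317, 134 and 247 CPM in EEDcKO and 292 to 440 CPM in Ctrl, with 1 EEDcKO library within the Ctrl range and the other two below it. The log2 fold change was −0.63 ± 0.41 (adjusted p = 0.253). Odam had 2, 14 and 2 counts in EEDcKO, a log2 fold change of −0.80 (adjusted p = 0.348). Wap was at 6.81, 0.437 and 3.77 CPM in EEDcKO and at a mean of 2.96 ± 1.57 CPM in Ctrl, so its spread in EEDcKO covered the Ctrl range. Summed mesenchyme markers were 242 to 317 CPM in Ctrl and 492 to 778 CPM in EEDcKO, summed cTEC markers 359 to 726 and 194 to 259 CPM, and summed endothelial markers 42.7 to 66.8 and 30.8 to 35.0 CPM. Their part in these differences was not tested.

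Loss of EED in mice that already lacked Aire gave no call among the milk genes. Of the 7 genes tested, 0 were called between AireEEDdKO and AireKO mTEChi by edgeR or by DESeq2, and 1, Csn1s2b, had an unadjusted p under 0.05 (0.0401), where 2.78% of all genes were called lower and 6.69% higher. Csn1s2a had 0 counts in each of the 3 AireEEDdKO libraries, as in the 3 AireKO libraries, and Csn1s1 had 0, 1 and 2. Csn2 was at 473, 514 and 243 CPM in AireEEDdKO and 655, 753 and 351 CPM in AireKO, a log2 fold change of −0.51 ± 0.45 (adjusted p = 0.49). Libraries of the same number paired here, and each of the 3 AireEEDdKO libraries was below the AireKO library of its number, with −0.52 (adjusted p = 0.461) with the replicate number as a block. Summed markers of cTEC, mesenchyme and endothelium also stood apart between these groups (458 to 671 and 232 to 422, 250 to 350 and 403 to 727, 39.3 to 40.1 and 30.2 to 34.7 CPM in AireKO and AireEEDdKO), and their part was not tested.

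Against EEDcKO, 3 genes were called lower in AireEEDdKO, where 8.36% of all genes were. Csn1s2a was at least 30.1-fold lower (adjusted p = 0.0067). Csn1s1 had a log2 fold change of −5.04 ± 1.05 (adjusted p = 0.00158), which ran from −5.65 without EEDcKO replicate 2 to −3.37 without replicate 3. With 3 counts of Csn1s1 in AireEEDdKO, the ratio of EEDcKO to AireEEDdKO was 33.1 (95% interval 11.1 to 162). Wap had 0, 0 and 2 counts in AireEEDdKO and 11, 2 and 12 in EEDcKO. The Wap difference of −3.25 ± 1.06 (adjusted p = 0.0297) was lost without EEDcKO replicate 1 (−2.56) or 3 (−3.06) or AireEEDdKO replicate 1 (−2.87) or 2 (−2.86), and with a term for age class (−3.10, adjusted p = 0.0806), and the ratio was 8.74 (95% interval 2.18 to 76.1). Csn2 was not called (0.83 ± 0.45, adjusted p = 0.199).

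Against Ctrl, 6 of the 7 genes were called lower in AireEEDdKO, where 9.94% of all genes were, and the exception was Csn2 (0.20 ± 0.40, adjusted p = 0.757). Csn1s2a was at least 68.4-fold lower (adjusted p = 0.000386), and Csn1s1 had a log2 fold change of −5.64 ± 0.97 (adjusted p = 0.000161). Odam (−4.02 ± 1.06), Csn1s2b (−3.76 ± 1.08), Wap (−3.25 ± 0.99) and Csn3 (−1.73 ± 0.54) had adjusted p from 0.00754 to 0.0179. Csn1s2b and Odam passed the filter only through Ctrl mTEChi, so a call lower was favoured in advance for both. The ratio of Ctrl to AireEEDdKO was 54.4 (95% interval 18.5 to 265.0) for Csn1s1, 20.2 (3.46 to 816) for Odam, 15.9 (2.69 to 646) for Csn1s2b and 11.0 (2.89 to 93.1) for Wap. Csn3 lost its call without AireEEDdKO replicate 1 (−1.71) or 3 (−1.18), Odam without replicate 3 (−3.26) and Wap without replicate 1 (−2.85) or 2 (−2.85). With a term for age class the calls of Csn3 (−1.30, adjusted p = 0.133) and Wap (−3.08, adjusted p = 0.0544) were lost. Summed thymocyte markers (83.3 to 106 and 56.1 to 59.5 CPM), mesenchyme markers (242 to 317 and 403 to 727) and endothelial markers (42.7 to 66.8 and 30.2 to 34.7) stood apart between Ctrl and AireEEDdKO, and their part was not tested. The Aire effect with EED present minus that without EED was called for 0 of 7 genes by edgeR and DESeq2, and 0 had an unadjusted p under 0.05, where 0.807% of all genes were called lower. That difference was −0.12 ± 0.60 for Csn2 and 0.99 ± 1.57 for Csn1s1 on the log2 scale, so its SE exceeded its size in both.

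In neonatal mTEClo of Ctrl mice, Csn1s1 had 14 to 23 counts and Csn1s2a 8 to 26 counts per library, beside 0 to 6 and 0 to 2 in adult WT mTEClo, a table that was fitted apart. Of the 7 genes tested, 4 were called lower in EEDcKO than in Ctrl, where 6.22% of all genes were. In these mTEClo libraries Aire itself was at 324 to 333 CPM in Ctrl and 60.6 to 312 CPM in EEDcKO. H2-Aa was at 497 to 580 CPM in Ctrl and 344 to 396 CPM in EEDcKO. The part of Aire and of H2-Aa in these differences was not tested. Csn2 was at 202, 192 and 158 CPM in Ctrl and 39.4, 63.6, 72.5 and 14.6 CPM in EEDcKO. All EEDcKO libraries were below all Ctrl libraries, and the log2 fold change was −1.95 ± 0.44 (adjusted p = 0.00181), kept without any single library at −2.26 to −1.65. Csn1s1 was at 7.77, 8.07 and 7.88 CPM in Ctrl and 0, 3.23, 2.77 and 0.505 CPM in EEDcKO, also apart. Its log2 fold change of −2.23 ± 0.74 (adjusted p = 0.0254) was lost without Ctrl replicate 1 (−2.31) or 2 (−2.28), without EEDcKO replicate 1 (−1.88) or 4 (−1.91) and with a term for age class (−2.08).

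Csn3 had 4, 4 and 3 counts in Ctrl mTEClo and 0, 1, 0 and 0 in EEDcKO, with a log2 fold change of −3.74 ± 1.08 (adjusted p = 0.0111). The ratio of Ctrl to EEDcKO was 20.9 (95% interval 3.03 to 899), and without EEDcKO replicate 2, which held the only count, Csn3 was at least 5.74-fold lower. Wap had 3, 7 and 2 counts in Ctrl and 0, 2, 0 and 0 in EEDcKO. Its log2 fold change of −3.13 ± 1.06 (adjusted p = 0.0283) was lost without Ctrl replicate 2 (−2.64) or EEDcKO replicate 1 (−2.86), 3 (−2.68) or 4 (−2.75), and the ratio of Ctrl to EEDcKO was 11.4 (95% interval 2.54 to 105). Csn1s2a had 26, 24 and 8 counts in Ctrl and 0, 11, 26 and 1 in EEDcKO, and the ranges overlapped (−1.53 ± 0.82, adjusted p = 0.174). Summed marker lists moved in the same comparison. The cTEC markers were at 1400 to 2222 CPM in Ctrl and 183 to 632 CPM in EEDcKO, and mesenchyme markers at 121 to 129 and 496 to 683 CPM. Endothelial markers were at 25.3 to 29.4 and 12.2 to 22.2 CPM, and mammary alveolar markers at 612 to 791 and 377 to 453 CPM. Within the alveolar list, Elf5 overlapped at 3.16 to 8.11 and 5.76 to 10.1 CPM. The part of these lists in the differences was not tested.

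Adding Aire deficiency in EED-deficient mTEClo left 0 of 7 genes called by edgeR, where 1.85% of all genes were called lower and 3.45% higher. DESeq2 called 2, and 3 had an unadjusted p under 0.05. Csn1s2a had 0 counts in each of 3 AireEEDdKO libraries and was at least 10.0-fold lower than in EEDcKO (adjusted p = 0.0704). Csn1s1 had 0, 0 and 1 counts (−3.79 ± 1.46, adjusted p = 0.116). Csn2 was at 143, 115 and 30.1 CPM in AireEEDdKO, of which replicate 3 was within the EEDcKO range and the others were above it. This gave a log2 fold change of 1.01 ± 0.44 (adjusted p = 0.17), and without that replicate it was 1.49 and called higher (adjusted p = 0.0212), as it was with no filter on low counts (1.07, adjusted p = 0.0161).

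Between fractions of neonatal Ctrl mice, 5 of 7 genes were called higher in mTEChi, where 13.8% of all genes were. Csn1s2b and Odam, both among the 5, passed the filter only through these mTEChi libraries, so a call higher was favoured in advance for both. Csn3 had a log2 fold change of 2.73 ± 0.59 (adjusted p = 0.00117), at 9.76 ± 3.19 CPM in mTEChi and 1.48 ± 0.181 in mTEClo. Csn2 was at 358 ± 71.3 and 184 ± 23.4 CPM, with no overlap, and its 0.95 ± 0.42 did not pass the test (adjusted p = 0.0754) except with no filter on low counts (adjusted p = 0.00704). Csn1s2b (3.07 ± 0.94), Odam (2.47 ± 0.81), Csn1s2a (2.07 ± 0.71) and Csn1s1 (1.63 ± 0.60) had adjusted p from 0.0136 to 0.0359. By DESeq2 only Csn3 and Csn1s2b of the 5 were called, with Csn1s1 at an adjusted p of 0.0567, Csn1s2a at 0.109 and Odam at 0.0524. Csn1s1 lost its call in 6 of 8 fits without 1 library, Csn1s2a without mTEClo replicate 1 (2.24), 2 (2.19) or 3 (1.92) or mTEChi replicate 3 (2.04), Odam without mTEClo replicate 1 (2.20) or 2 (2.22), and Csn1s2b without mTEClo replicate 1 (2.47). The ratio of mTEChi to mTEClo for Csn1s2b, with 2 counts in mTEClo, was 9.24 (95% interval 2.38 to 79.1). The cTEC markers summed to 359 to 726 CPM in mTEChi and 1400 to 2222 in mTEClo, whereas thymocyte (83.3 to 106 and 24.8 to 38.6), mesenchyme (242 to 317 and 121 to 129), endothelial (42.7 to 66.8 and 25.3 to 29.4) and myeloid and B cell markers (225 to 259 and 84.4 to 133) were higher in mTEChi. Their part in these differences was not tested.

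Between fractions of EEDcKO mice, 6 of 7 genes were called higher in mTEChi, where 14.2% of all genes were, and the exception was Csn1s2b (−0.22, adjusted p = 0.918), with 1 count in 3 mTEChi and 2 counts in 4 mTEClo libraries. Csn2 had a log2 fold change of 2.28 ± 0.44 (adjusted p = 0.000363), with mTEChi at 134 to 317 CPM above mTEClo at 14.6 to 72.5. Csn3 (4.99 ± 0.91) was at 3.77 without mTEChi replicate 3 and Wap (4.13 ± 0.95) at 3.44 without mTEChi replicate 1. Without mTEClo replicate 2, which held every mTEClo count of both, Csn3 was at least 13.4-fold and Wap at least 14.2-fold higher in mTEChi. With all libraries the ratio of mTEChi to mTEClo was 49.2 (95% interval 8.22 to 2004) for Csn3 and 19.2 (4.79 to 167) for Wap. Odam, at 0 in mTEClo, was at least 7.89-fold higher in mTEChi (adjusted p = 0.00185). Csn1s1 (3.27 ± 0.69, adjusted p = 0.0008) lost its call without mTEChi replicate 3 (1.59, adjusted p = 0.097). Csn1s2a (2.24 ± 0.80, adjusted p = 0.0346) lost its call without mTEChi replicate 1 (0.68) and mTEClo replicate 1 (1.87) or 4 (1.83), by DESeq2 (adjusted p = 0.0729) and with only the groups compared (adjusted p = 0.135). Summed thymocyte (50.3 to 83.3 and 21.2 to 40.4 CPM), endothelial (30.8 to 35.0 and 12.2 to 22.2) myeloid and B cell (172 to 302 and 26.2 to 144), mTEC (2172 to 3496 and 1340 to 1880) and mammary alveolar markers (511 to 699 and 377 to 453) were higher in these mTEChi libraries as well, and their part was not tested.

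Counts of Csn2 did not scale with depth in the same way in every group, which bears on its CPM. From the shallowest to the deepest library of a group, its count ratio was below the ratio of totals in 8 of 11 groups and above it in 3. Between the shallowest and the deepest adult WT mTEChi library the total rose 2.02-fold and genes with a mean of 100 to 300 counts rose by a median of 2.07-fold, while Csn2 went from 912 to 1028 counts, 1.13-fold. Genes with a mean of 1000 counts or more rose by a median of 1.82-fold between those libraries. In neonatal EEDcKO mTEChi the total rose 2.75-fold and Csn2 1.20-fold, and in AireEEDdKO the total rose 1.64-fold while the count ratio of Csn2 was 0.853. In adult WT mTEClo, where Csn2 was lower, it rose 1.92-fold for a total that rose 2.38-fold. The total rose 2.40-fold and Csn2 1.37-fold in adult mTEClo AireKO, and 2.24-fold and 1.30-fold in neonatal mTEChi AireKO. The other way round, the total rose 1.23-fold and Csn2 1.35-fold in adult mTEChi AireKO, 1.6-fold and 2.14-fold in neonatal mTEClo Ctrl, and 1.68-fold and 1.92-fold in neonatal mTEClo EEDcKO. The part of depth in the Csn2 differences between groups was tested only in the comparisons that keep at least 2 libraries a group in a window of depth.

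**Figure D5:**
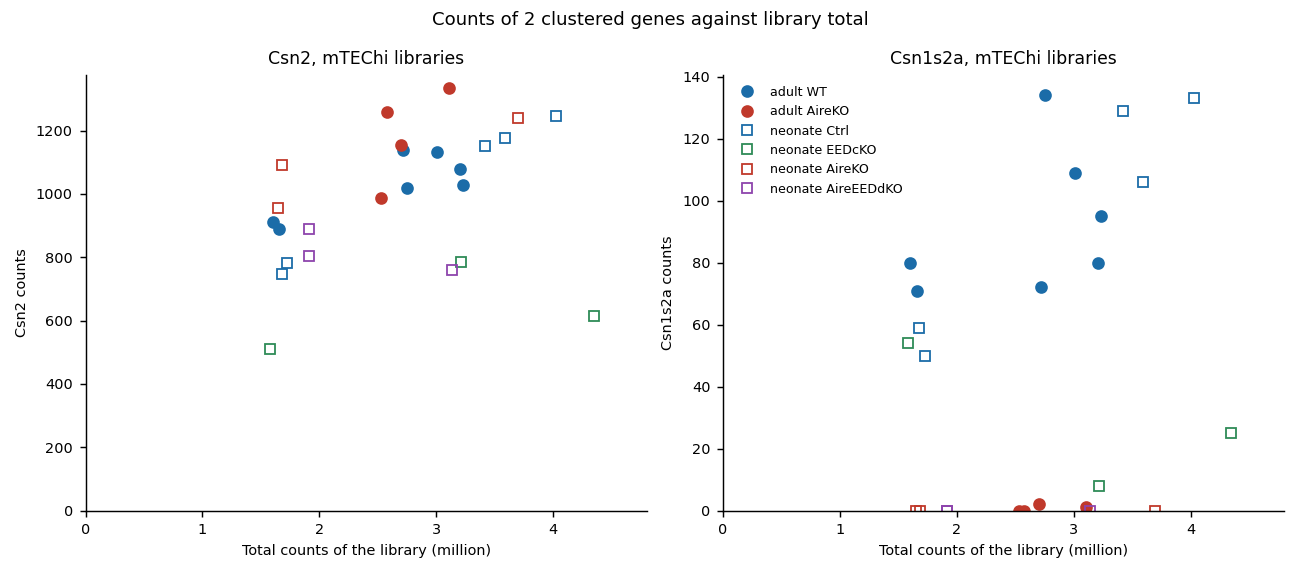
Counts of Csn2 (left) and Csn1s2a (right) against the total counts of each mTEChi library, with adult libraries as filled circles and neonatal libraries as open squares. Adult WT Csn2 counts lie between 890 and 1139 while totals differ 2.02-fold, and Csn1s2a in AireKO stays at 0 to 2 counts at every depth.

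Across the 7 adult WT mTEChi libraries the clustered genes with a mean of at least 10 counts were compared as 6 pairs of log2 CPM. Csn1s1 and Csn1s2a had Pearson's r = 0.79 (exact permutation p = 0.0460, adjusted p = 0.138) and Spearman's rho = 0.75 (exact permutation p = 0.0663, adjusted p = 0.199), and r was 0.81 without the 2 libraries farthest from the median. Csn2 and Csn3 had r = 0.79 (exact permutation p = 0.0389, adjusted p = 0.138) and rho = 0.75 (exact permutation p = 0.0663), but r was 0.25 without the 2 farthest libraries, so the relation rests on those. No pair passed the adjustment, and CPM of libraries share the depth and scaling of each library.

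By likeness over all 23 adult libraries (Pearson's r of log2(CPM + 1), a description), the genes whose level followed Csn2 most closely were H2-Eb2 (0.987), Crtac1 (0.983), Gm49542 (0.982), Atp6v0a1 (0.981) and Hdc (0.980). Over 24 neonatal libraries they were Srgn (0.977), Gm29461 (0.975), Krt222 (0.974), 4933427I22Rik (0.974) and Pip5k1b (0.973). For Wap they included Ighg2b (0.904), Prss56 (0.900), BC055402 (0.897) and Avp (0.894) in adults, and 2310046K23Rik (0.872), Mcpt1 (0.858), Fcer1a (0.856) and Hemgn (0.850) in neonates. The libraries share groups and fractions, so these values follow the difference between groups.

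Beyond the cluster, 20 protein-coding genes lie within 500 kb of it, of which 3 passed the filter in adults and 4 in neonates. All 3 were called lower in adult mTEChi AireKO, where 17.8% of all genes were, and these were Amtn (amelotin, an enamel matrix gene), Sult1e1 (oestrogen sulfotransferase, −2.71) and the related Sult1d1 (−1.31). Amtn, 443.4 kb beyond Csn3, had 37 to 85 counts in WT and 0 in all 4 AireKO libraries, at least 82.5-fold lower. In neonatal mTEChi 2 of 4 were called lower in AireKO, with Amtn at least 47.6-fold lower and Sult1d1 at −1.64, and 3 of 4 in EEDcKO, with Sult1d1 at −2.88 and Sult1e1 at −2.06, where 12.8% and 5.4% of all genes were. Of 4 genes next to Wap, 3 passed the filter in adults, and Ramp3, a receptor-modifying protein, was called higher in adult AireKO mTEChi (1.22). In neonates Ramp3 (−1.01) and Nacad (−1.41) were called lower in AireKO mTEChi. Of the 4 genes next to Lalba, 1 passed the filter, and it was not called in these comparisons.

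The other genes of lactation give the background, and their counts are read against the share of all genes called in the same comparison. In AireKO mTEChi 17.8% of all genes fell and 5.63% rose in adults, and 12.8% fell in neonates. In EEDcKO 5.4% fell and 8.48% rose in mTEChi, and 6.22% fell and 9.51% rose in mTEClo. Of 12 further milk and fat globule proteins, 10 were tested in adults, and 4 fell in mTEChi AireKO and 0 rose, among them lactoferrin Ltf (−5.55), osteopontin Spp1 (−4.21) and the bile salt-stimulated lipase Cel (−2.49). The median log2 fold change of the list was −0.70, beside −0.01 over all genes. In neonatal mTEChi AireKO, 5 of 12 fell and 0 rose, including the milk fat secretion gene Btn1a1 (−3.23), with a list median of −1.15 beside 0.03. In EEDcKO mTEChi 1 of 12 fell, Cel (−1.99), with a median of −0.40, a count near that share of all genes and no result about the list.

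Of 10 genes of lactation signalling, 2 fell and 1 rose in adult mTEChi AireKO, and the list median was −0.06, so the counts were near those of all genes. Elf5, a transcription factor of mammary alveolar cells, fell by 2.32 on the log2 scale, from 6.78 to 17.9 CPM in WT to 1.64 to 3.77 CPM in AireKO. Socs2, a feedback inhibitor of cytokine signalling, was at −1.32 and Stat5b at 1.06. In neonatal AireKO mTEChi, 2 of 10 fell, again Elf5 (−2.64) and Socs2 (−1.15), with a list median of 0.22. In EEDcKO, Gata3 (1.76) and Socs2 (1.08) rose in mTEChi, and Gata3 (2.90), Socs2 (1.70) and Cebpb (1.65) rose in mTEClo. The prolactin receptor Prlr was at 43.6 to 55.8 CPM in adult WT and 46.9 to 69.8 CPM in AireKO mTEChi. Of 10 tested genes of milk sugar and fat synthesis, 4 fell and 1 rose in adult AireKO mTEChi, among them the lipoprotein lipase gene Lpl (−1.63) and the fatty acid synthesis gene Acaca (−1.61), with a list median of −0.43, and 0 were called in neonatal AireKO or EEDcKO mTEChi.

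Odam belongs to the secretory calcium-binding family of enamel, bone and milk. Of 8 listed genes with an identifier, 5 were tested in adults and all 5 fell in mTEChi AireKO, where 17.8% of all genes did. Amtn is also counted among the cluster neighbours, and Spp1 among the milk proteins. Enam, Ambn and Amtn were at 0 in all 4 AireKO libraries, and the bone sialoprotein gene Ibsp was at −3.64. Only other groups could bring the genes at 0 past the filter, which favours a call lower. In neonatal AireKO mTEChi 3 of 4 fell, where 12.8% of all genes did. In EEDcKO 1 of 4 fell in each fraction, Enam, where 5.4% of all genes fell in mTEChi and 6.22% in mTEClo. Enam was at −2.92 in mTEChi and went from 4.62 ± 7.70 CPM in Ctrl to 0.0842 ± 0.168 CPM in EEDcKO mTEClo. That Ctrl SD exceeds its mean over 3 libraries, so the mTEClo fall rests almost wholly on 1 Ctrl library. Amtn had 54 to 70 counts in each EEDcKO mTEChi library. Summed markers of mammary alveolar cells (Elf5, Prlr, Krt18, Kit, Wfdc18 and Csn3, all detected) were 555 to 722 CPM in adult WT and 779 to 830 CPM in AireKO mTEChi, and their part in the differences between those groups was not tested.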

How the data were processed

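RNA-seq libraries were made with a full-length RamDA-type method using random and oligo-dT primers. The authors deposited whole-number counts per Ensembl gene, made with fastp 0.20.0, STAR 2.7.3a on mm10, SAMtools 1.9, Picard 2.21.1 (duplicates removed) and HTSeq 0.11.2 regardless of strand. The annotation release is not given in the sources used here. Because reads carry no molecular identifiers, dropping duplicates can compress the counts of abundant genes. Symbols and coordinates came from GENCODE M21 (GRCm38), which held 99.8% of adult and 99.4% of neonatal identifiers. Normalized tables by the authors were left out.

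The tools were edgeR 4.0.16, limma 3.58.1 and DESeq2 1.42.0 in R 4.3.3, and Python 3.11.15 with SciPy 1.17.1 and pandas 2.3.3. Each table was fitted apart over all its groups (filterByExpr, TMM, quasi-likelihood test, prior count of 0.125) and Benjamini-Hochberg adjustment ran over all 19310 adult or 20196 neonatal genes tested. Calls needed at least a 2-fold difference besides an adjusted p below 0.05. Csn1s2b and Odam passed the filter only through neonatal Ctrl mTEChi, and Csn1s1, Csn1s2a and Wap in adults only through WT mTEChi. Calls that set those groups above others were thus favoured in advance for these genes. All tests are 2-sided. The fit was tested on simulated data. A group at 0 was set at a floor of 3 counts. The alternatives were RLE factors, library size alone, no filter, a filter of 10 counts in all libraries of 1 group, DESeq2, a replicate block, only the groups compared, a prior count of 2, no minimum change, each library left out, libraries with mitochondrial counts, male mice, and age. A window of library totals and, for the fractions of adult AireKO, libraries without mitochondrial counts only were added after the data were seen.

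Milk genes and gene lists were chosen with earlier results of these data known. Named from each list are up to 6 called genes with the largest change and a mean of at least 10 counts in the higher group, and 5 genes by likeness, of which some are not reported here. Replicate numbers were shared by groups, and libraries with the same number deviated together (every correlation over 0.1) only in adult AireKO mTEChi against mTEClo (0.145 to 0.238) and in neonatal mTEChi AireEEDdKO against AireKO (0.122 to 0.226).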

Additional observations from a re-analysis of the deposited data

Results flagged for a closer look

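For 3 milk genes the effect of Aire deficiency differed between adult mTEChi and mTEClo at an adjusted p below 0.05 in a test of the difference itself (edgeR, 2-sided), of which 2 were called and Csn2, at less than a 2-fold difference, was not. The effect in mTEChi minus that in mTEClo was −6.68 on the log2 scale for Csn1s1 (adjusted p = 9.3e-08), −7.92 for Csn1s2a (adjusted p = 0.000162) and −0.84 for Csn2 (adjusted p = 0.025). For Csn2 the effect was 0.21 in mTEChi, where it did not pass the test, and 1.05 in mTEClo. The 8 counts of Csn1s2a in mTEClo AireKO replicate 3 carried its value, which was not called (adjusted p = 0.941) without that library. No library stood apart from its group by Dixon's criterion in 22 sets of values tested. Among 3 to 5 libraries, as in the neonatal groups, that criterion can hardly single out any. It does not show that these groups are even.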

How the results depend on the processing

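Of 45 differences called for a milk gene, 26 kept their direction and their call under every alternative that could be fitted, and over all these alternatives 743 values kept their call and 69 lost it. Counts of called milk genes moved by over 1.5 times under these settings. In adult mTEClo AireKO against WT the count went from 2 to 1 with only the groups compared, with only libraries that hold mitochondrial counts, with male mice only and with age as a term. For the effect of Aire deficiency in mTEChi minus that in mTEClo it went from 2 to 4 with library size alone and with DESeq2. In neonatal mTEChi it went from 4 to 2 with DESeq2 for AireKO against Ctrl, from 2 to 1 with the 10-count filter for EEDcKO against Ctrl, from 3 to 0 with only the groups compared for AireEEDdKO against EEDcKO, and from 6 to 3 with the 10-count filter or only the groups compared for AireEEDdKO against Ctrl. In neonatal mTEClo it went from 4 to 2 with only the groups compared for EEDcKO against Ctrl, and from 0 to 3 with no filter and 2 with DESeq2 for AireEEDdKO against EEDcKO. Between neonatal fractions it went from 5 to 3 with the 10-count filter and 2 with DESeq2 in Ctrl, and from 6 to 2 with only the groups compared in EEDcKO. The cause of these moves was not tested, except that the 10-count filter tests fewer genes and the groups compared alone hold fewer libraries.

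With the replicate number as a block, the count for neonatal mTEClo AireEEDdKO against EEDcKO went from 0 to 1. In the 2 comparisons whose numbers paired the libraries the block changed no call, and elsewhere the samples share only a number. Between neonatal fractions the block took the calls of Csn1s1 in Ctrl (1.54, adjusted p = 0.077) and of Csn1s2a in EEDcKO (2.13, adjusted p = 0.063).

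Leaving out 1 library gave counts of 2 to 3 in adult mTEChi, 1 to 2 in adult mTEClo, 2 to 3 for the difference of these effects, 4 to 5 between WT and 2 to 3 between AireKO fractions. In neonatal mTEChi the range was 2 to 4 for AireKO and 0 to 3 for EEDcKO against Ctrl, 2 to 3 for AireEEDdKO against EEDcKO and 4 to 6 against Ctrl, and 0 in all fits against AireKO and for the interaction. In neonatal mTEClo it was 2 to 4 for EEDcKO and 0 to 1 for AireEEDdKO, and between fractions 1 to 4 in Ctrl and 5 to 6 in EEDcKO. Directions turned only for small differences. Csn3 between AireEEDdKO and EEDcKO mTEChi (−0.25) was 0.27 with a term for age class and −1.0 to 0.97 without 1 library. Csn2 between AireEEDdKO and Ctrl mTEChi (0.20) was −0.00149 with library size alone. In the interaction, Csn2 (−0.12) ran from −0.38 to 0.17 and Csn1s1 (0.99) from −0.95 to 1.57 without 1 library. Depth limits the genes with few counts, which are Lalba, Csn1s2b and Odam, with 0 to 15 counts in every library, and Wap, with at most 18. Comparisons of 3 libraries a group are limited as well.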
